A study of Mus musculus with 203 samples.

Results

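Lung endothelial cells were followed through 10 genes named in a list: Car4, Ednrb, Kdr, Apln, Aplnr, Gpihbp1, Plvap, Tek, Cldn5 and Pecam1. The 10 genes were picked by symbol out of the 43346 gene identifiers of the count table. RNA-seq had been run on airway and parenchyma of female BALB/c mice, which the labels put at 18 to 20 weeks of age, in libraries that fall into 20 groups. No transgene or deletion is named for any group, so all groups shared strain and sex and differed in what they were given. At 3 weeks the mice had received either phosphate buffered saline (PBS) or house dust mite extract (HDM) through the nose on 5 days a week, which gave 11 PBS airway, 10 HDM airway, 12 PBS parenchyma and 10 HDM parenchyma libraries. HDM is an allergen mixture used to raise experimental asthma. At 11 weeks each tissue had 8 groups of 10 libraries: PBS or HDM (continued 3 times a week), each with normal air (AIR) or cigarette smoke (CS, 2 exposures a day on 5 days a week for 8 weeks), and each without or with dexamethasone (DEX, a synthetic glucocorticoid) in week 11. Airway and parenchyma were separated by blunt dissection, so neither is a pure tissue, and HDM with CS is the study's model of asthma-COPD overlap.

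Blood vessels of the lung are lined by several kinds of endothelial cell. In the alveolar wall, general capillary cells serve as the stem cells of the capillary bed and control vessel tone, whereas aerocytes are large, thin cells that lie against the alveolar type I epithelium and serve gas exchange. Aerocytes of the mouse are marked by Car4 (a membrane-bound carbonic anhydrase), Ednrb (endothelin receptor type B), Kdr (the main receptor for vascular endothelial growth factor A, VEGFR2) and Apln (the peptide apelin). General capillary cells carry Aplnr (the apelin receptor), Gpihbp1 (which carries lipoprotein lipase to the capillary wall), Plvap (the protein of the diaphragms that close caveolae and fenestrae) and Tek (the angiopoietin receptor TIE2). Cldn5 (a claudin of endothelial tight junctions) and Pecam1 (the adhesion molecule CD31) are found in nearly all endothelial cells, Pecam1 also on platelets and many leukocytes. The measurements were made on whole tissue, in which fewer cells of a type and less RNA per cell cannot be told apart.

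The 10 genes lie on 9 chromosomes of GRCm38 and all are protein coding: Car4 (ENSMUSG00000000805, chromosome 11, 84957786 to 84966044), Ednrb (ENSMUSG00000022122, chromosome 14, 103814625 to 103844402), Kdr (ENSMUSG00000062960, chromosome 5, 75932827 to 75978458), Apln (ENSMUSG00000037010, chromosome X, 48025146 to 48034853), Aplnr (ENSMUSG00000044338, chromosome 2, 85136225 to 85139923), Gpihbp1 (ENSMUSG00000022579, chromosome 15, 75596628 to 75599481), Plvap (ENSMUSG00000034845, chromosome 8, 71497765 to 71511752), Tek (ENSMUSG00000006386, chromosome 4, 94739289 to 94874976), Cldn5 (ENSMUSG00000041378, chromosome 16, 18776847 to 18778262) and Pecam1 (ENSMUSG00000020717, chromosome 11, 106654217 to 106750628). Plvap overlaps Gtpbp3 on the other strand, and whether reads were counted by strand is not given in the sources used here, so its values are the less certain. The reference promoter table (RefSeq, GRCm38.p6) held an entry for 6 of the 10 genes. The 250 bases before the start of transcription are shown for 3 that behaved differently below. They are Car4, whose HDM difference at 3 weeks did not pass the test, and Kdr and Tek, which fell. Capitals mark GGAA, the core bound by ETS factors such as ERG, read on either strand. The windows are chr11:84957504-84957753 (plus strand) for Car4, chr5:75978456-75978705 (minus strand) for Kdr and chr4:94739039-94739288 (plus strand) for Tek, each written 5′ to 3′ on the strand of its gene.
Car4: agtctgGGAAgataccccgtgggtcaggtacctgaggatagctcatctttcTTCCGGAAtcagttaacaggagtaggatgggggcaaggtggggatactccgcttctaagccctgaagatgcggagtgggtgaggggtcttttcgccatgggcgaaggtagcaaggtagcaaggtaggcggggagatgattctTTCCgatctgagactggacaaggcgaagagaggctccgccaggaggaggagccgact
Kdr: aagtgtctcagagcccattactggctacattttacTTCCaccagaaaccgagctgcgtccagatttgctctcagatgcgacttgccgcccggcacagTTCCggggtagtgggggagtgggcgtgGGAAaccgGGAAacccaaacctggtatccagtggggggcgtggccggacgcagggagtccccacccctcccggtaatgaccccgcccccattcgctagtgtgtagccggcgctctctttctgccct
Tek: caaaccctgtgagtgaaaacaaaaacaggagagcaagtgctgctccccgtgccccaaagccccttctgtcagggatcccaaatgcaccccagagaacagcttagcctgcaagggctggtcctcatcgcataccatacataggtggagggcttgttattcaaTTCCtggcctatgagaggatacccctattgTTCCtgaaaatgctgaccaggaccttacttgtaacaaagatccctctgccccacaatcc
The motif occurred 4 times before Car4, 4 times before Kdr, 2 times before Tek, 3 times before Apln, 2 times before Ednrb and 0 times before Cldn5. Of 32851 promoter windows of this length 93.4% hold it, with a median of 3 occurrences. The genes other than Cldn5 thus stand near the background, and Cldn5 is among the windows without the motif. The Tek window also holds ACAAT, a core of SOX factors, 2 times, a motif present in 27.7% of all windows and in none of the other 5. GATAA (22.6% of windows) was found before none of the 6 genes, and CACCC (52% of windows) before 5 of the 6.

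Library totals ran from 13003087 to 40240680 counts with a median of 28090612, and the smallest count behind any value given for the 10 genes was 73 (Apln in 1 HDM AIR DEX parenchyma library). All 10 passed the filter on low counts in every fit. Levels are given as CPM, each count as a share of its TMM-scaled library total, and a gene is said to have risen or fallen where limma-voom gave a Benjamini-Hochberg adjusted p under 0.05 over all genes tested. Errors of log2 differences are standard errors. Tissue markers separated the tissues in most libraries: Adipoq, an adipocyte gene, lay between 12.1 and 109.4 CPM in the PBS airway libraries of 3 weeks and between 0.11 and 0.96 CPM in the PBS parenchyma libraries. In the HDM airway libraries of 3 weeks Adipoq ran from 1.24 to 60.5 CPM, reaching below the PBS airway range. The part of such tissue content in the HDM differences of airway was not tested. A few libraries stood apart. The libraries coded X63 (3-week HDM airway), X81 (3-week PBS airway) and X70 (11-week HDM AIR parenchyma) had the lowest correlations with their own groups, the library labelled airway and coded X109 (HDM AIR) had Adipoq, Foxj1 and Myh11 at the level of parenchyma, the HDM AIR parenchyma library X90 had Foxj1 at 157.1 CPM, and X32 (HDM AIR DEX parenchyma) was the shallowest. The choice was not complete. The airway libraries X155, X5 and X153 had lower group correlations (0.9085 to 0.9137) than X109, X90 and X32 and were kept. The 3-week HDM airway libraries X183 and X103, with Adipoq at 2.88 and 1.24 CPM, were kept too. TMM-scaled calls of the 10 genes that change without X63, X81, X70, X109, X90 and X32 are given both ways. The fits scaled to endothelial genes, described below, were not repeated without these 6 libraries.

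The first comparison asked how much of these transcripts each tissue holds in control mice given PBS. At 3 weeks 9 of the 10 genes were lower in PBS airway than in PBS parenchyma, beside 31.7% of all 17381 genes tested, and the median log2 difference was -0.88, beside -0.05 over all genes. Car4 lay between 30.9 and 113.4 CPM in the 11 airway libraries (median 79.1) and between 123.05 and 171.25 CPM in the 12 parenchyma libraries (median 146.8). The tissues did not overlap in Car4, Kdr and Cldn5 (2.4% of all genes had every airway library below every parenchyma library), and the log2 difference in Car4 was -0.96 ± 0.24 (adjusted p = 0.00082). Aplnr (-1.19 ± 0.22) and Gpihbp1 (-1.17 ± 0.17) differed most. Pecam1 was the exception, with 263 to 399 CPM in airway, 282 to 449 CPM in parenchyma and a log2 difference of -0.09 ± 0.09 (adjusted p = 0.43). Airway carried more smooth muscle (6 of 6 markers higher), cardiac muscle (5 of 5), ciliated (5 of 5) and adipose (4 of 4) transcripts, where 24.3% of all genes were higher, and their part in these differences was not tested. At 11 weeks all 10 genes were lower in airway of the PBS AIR groups (30.1% of 18250 genes were), Pecam1 included (-0.75 ± 0.12, adjusted p = 9.2e-09), and Car4, Plvap, Tek, Cldn5 and Pecam1 did not overlap, as 7.07% of all genes did not in this direction.

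Levels of different genes are compared only per kilobase of exon. In 3-week PBS parenchyma Cldn5 was highest, at 249.8 ± 40.6 CPM per kilobase (SD, n = 12), and Apln lowest, at 8.75 ± 1.17. Between them came Plvap, Gpihbp1, Tek, Car4, Pecam1, Aplnr, Kdr and Ednrb, from 109.5 down to 22.97 CPM per kilobase. The ranges of neighbours in this order overlapped except between Cldn5 and Plvap, Pecam1 and Aplnr, and Ednrb and Apln. In 3-week PBS airway, where Cldn5 stood at 128.7 and Apln at 4.37 CPM per kilobase, the ranges of all neighbours overlapped.

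HDM for 3 weeks lowered 9 of the 10 genes in parenchyma, and the difference in Car4 did not pass. Of all genes 44.3% were lower, and with a log2 difference of at least 1 in size 15.1% were, against 8 of the 10 genes here. The median was -1.74, beside -0.13 over all genes. Among the aerocyte genes, Ednrb lay between 74.3 and 116.5 CPM in PBS libraries (median 99.7) and between 7.56 and 20.1 CPM in HDM libraries (median 13.6). Every HDM library was below every PBS library, and the difference was 8.02-fold (log2 -3.00 ± 0.17, adjusted p = 2.4e-19), the largest among the 10 genes. Kdr went from 193.9 to 275 CPM (median 216) to 50.3 to 97.04 CPM (median 73.3), a 3.25-fold fall, and Apln from 21.4 to 36.6 CPM (median 27.2) to 7.56 to 12.4 CPM (median 9.12), a 3.00-fold fall, both without overlap. Car4, the fourth aerocyte gene, held 123.05 to 171.25 CPM in PBS and 105.9 to 215 CPM in HDM libraries (medians 146.8 and 167.4). The HDM range enclosed the PBS range, and the log2 difference of 0.08 ± 0.25 did not pass (adjusted p = 0.79).

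General capillary genes fell in the same parenchyma libraries. Tek, the receptor of the angiopoietins, went from 287 to 404 CPM (median 344) in PBS to 55.3 to 119.03 CPM (median 82.6) with HDM, 4.41-fold lower (log2 -2.14 ± 0.16, adjusted p = 1.3e-15). Gpihbp1 went from 178.1 to 268 CPM (median 221) to 42.2 to 63.6 CPM (median 49.7), 4.47-fold lower. Aplnr fell 4.04-fold and Plvap 2.18-fold, the latter from a median of 211 to 100.6 CPM. None of these 4 genes overlapped between the groups, and with Ednrb, Kdr, Apln and Cldn5 that made 8 of the 10, beside 19.4% of all genes with every HDM library below every PBS library. Of the 2 shared endothelial genes, Cldn5 was 3.46-fold lower, from 282 to 485 CPM (median 351) to 77.98 to 150.7 CPM (median 106.1), without overlap. Pecam1 fell by 0.41 ± 0.09 on the log2 scale (adjusted p = 0.0001), with 282 to 449 CPM in PBS and 226 to 320 CPM in HDM libraries, which overlapped.

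In airway the same 9 genes were lower after 3 weeks of HDM (40.5% of all genes were), 6 of them with a log2 difference of at least 1 in size (11.8% of all genes). The median was -1.29, beside -0.07 over all genes. Ednrb went from 45.9 to 86.7 CPM (median 68.9) to 7.71 to 31.8 CPM (median 15.8), 4.42-fold lower, Tek from 108.6 to 296 CPM (median 211) to 29.8 to 90.9 CPM (median 48.2), 3.96-fold lower, and Cldn5 from 102.1 to 255 CPM (median 195.1) to 37.02 to 86.2 CPM (median 58.4), 2.87-fold lower. Only these 3 of the 10 did not overlap, beside 9.15% of all genes. Car4 again spread widely, with 30.9 to 113.4 CPM in PBS and 17.0 to 150.8 CPM in HDM libraries (log2 -0.26 ± 0.25, adjusted p = 0.34). The lowest Car4 values belonged to the libraries X81 and X63 that stood apart. The count of genes that fell was 9 in each tissue with and without them. The HDM difference was smaller in size in airway than in parenchyma for Ednrb (log2 difference of the differences 0.86 ± 0.24, adjusted p = 0.01), Apln (0.83 ± 0.25, p = 0.02) and Kdr (0.51 ± 0.18, p = 0.044), 3 aerocyte genes, while 10.8% of all genes passed in that direction. With all 20 groups in one fit 1 gene passed.

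**Figure D1:**
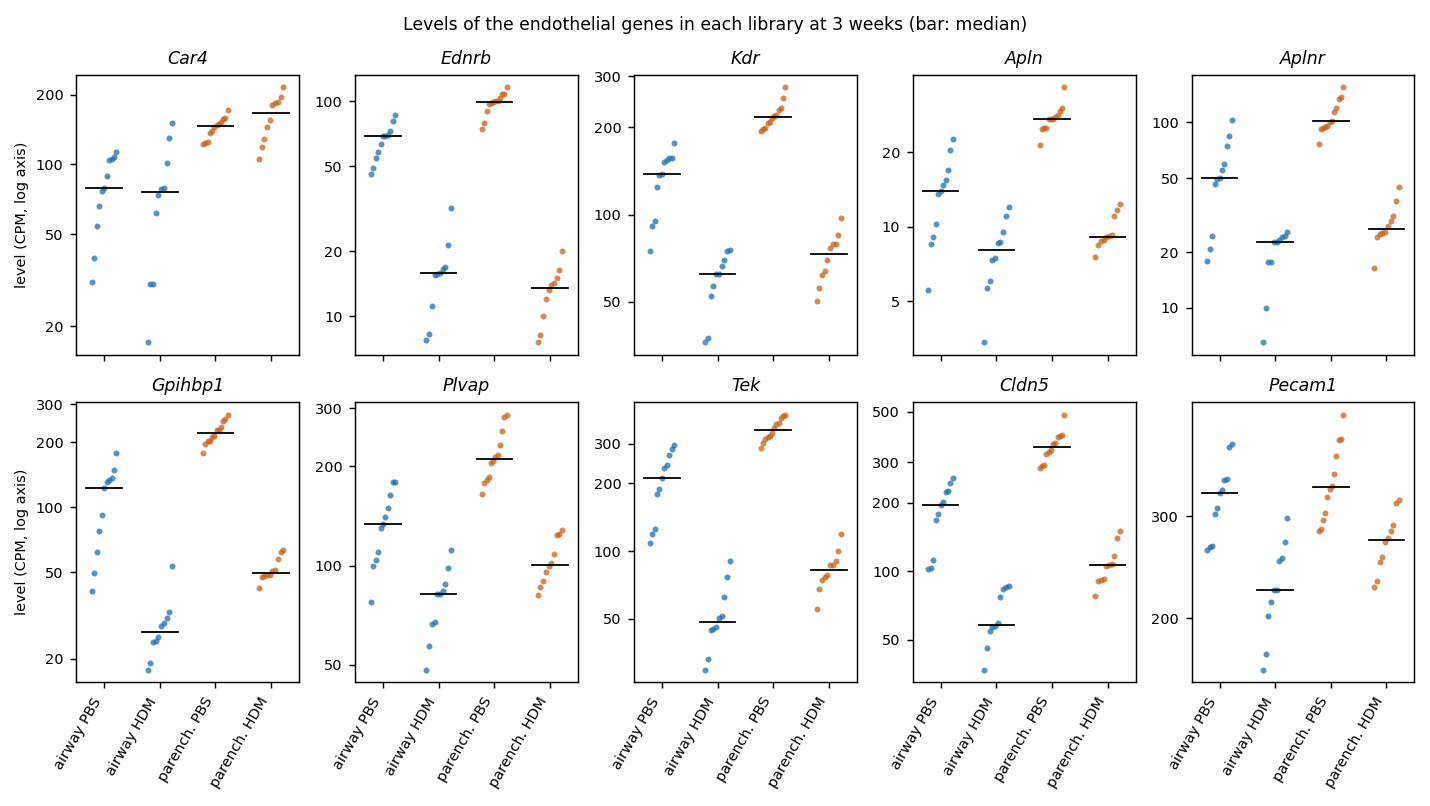
Levels of the 10 genes at 3 weeks (CPM, log axis), 1 point for each library sorted by value within its group, with the median as a bar: airway and parenchyma, PBS and HDM. Ednrb shows the widest gap, 74.3 to 116.5 CPM in PBS parenchyma and 7.56 to 20.1 CPM in HDM parenchyma, and Car4 overlaps in both tissues.

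Other endothelial genes were read from lists, to be set beside the 44.3% of all genes that were lower in parenchyma and the 40.5% in airway. In 3-week parenchyma 7 of 8 further aerocyte genes fell with HDM, led by Fibin (-2.68 ± 0.13), Rprml (-2.25 ± 0.26) and Tbx2 (-1.78 ± 0.16), a T-box transcription factor. The list median was -1.22, beside -0.13 over all genes. All 6 further general capillary genes fell, led by the phosphatase Ptprb (-2.50 ± 0.13), which acts on TIE2, and Hilpda (-2.34 ± 0.20), followed by Bmp6 (-1.64 ± 0.19). The list median was -1.49. Of 9 arterial genes 6 fell, led by Bmx (-2.77 ± 0.24), Efnb2 (-2.51 ± 0.16) and Hey1 (-2.38 ± 0.16), and 1 rose, the chemokine gene Cxcl12 (0.52 ± 0.11). Of 7 venous genes 6 fell and Selp, the adhesion molecule P-selectin, rose by 2.57 ± 0.35. Of 5 lymphatic genes 2 fell, Lyve1 (-1.83 ± 0.15) and Flt4 (-1.10 ± 0.11), no larger a share than among all genes. All 10 pan-endothelial genes fell, from Mmrn2 (-0.42 ± 0.14) to Clec14a (-2.70 ± 0.15). In airway the counts of genes that fell were 7 of 8 aerocyte, 6 of 6 general capillary, 7 of 9 arterial, 6 of 7 venous, 3 of 5 lymphatic and 10 of 10 pan-endothelial genes.

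Genes of the VEGF and angiopoietin, apelin and endothelin, and lipoprotein lipase lists moved too, not all of them ligands of the listed receptors. KDR binds VEGF-A, and TIE2 binds the activating ligand angiopoietin 1 and the context-dependent angiopoietin 2. In 3-week parenchyma 8 of 10 VEGF and angiopoietin genes fell with HDM (44.3% of all genes did), with Angpt1 at -2.56 ± 0.10, Vegfd at -2.27 ± 0.15 and Vegfa at -1.76 ± 0.21. Angpt1 went from 121.8 to 186.7 CPM in PBS to 21.4 to 34.1 CPM in HDM libraries, with no overlap. Nrp2 (1.44 ± 0.13) and Pgf (0.71 ± 0.15) rose. All 5 measured apelin and endothelin genes fell, led by Apela (-2.41 ± 0.61), a second ligand of the apelin receptor, Edn3 (-1.73 ± 0.20), a ligand of EDNRB, and Ednra (-1.35 ± 0.07), the other endothelin receptor. Among the partners of GPIHBP1, Lpl, which encodes lipoprotein lipase, rose in parenchyma (1.05 ± 0.16, adjusted p = 1.7e-07) and did not pass in airway (0.20 ± 0.16, p = 0.26). Lmf1 rose as well (0.43 ± 0.08), and Cd36, a fatty acid receptor, fell (-1.01 ± 0.13).

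Transcripts of other cell types moved in the same libraries. The summed level of 10 leukocyte markers lay between 500 and 685 CPM in PBS and between 2232 and 3104 CPM in HDM parenchyma, and 10 of 10 rose (33.4% of all genes did). Alveolar type I markers, of the epithelium that aerocytes face, went from a sum of 4057 to 5941 CPM to one of 2025 to 2584 CPM, and 5 of 7 fell (44.3% of all genes did). All 5 pericyte markers fell as well. None of these lists had a marker at or near 0 in those groups, and their part in the differences of the endothelial genes was not tested.

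To describe the mix among endothelial transcripts, each library was also scaled to the geometric mean of the 10 pan-endothelial genes in place of all genes. This scaling moved the median of all genes up by 1.42 on the log2 scale for the HDM comparison in 3-week parenchyma, from -0.13 to 1.30, and by 1.16 in airway, and most genes passed on it (87.3% and 86.5%), so a call here says only that a gene moved unlike those 10. In parenchyma Car4 was 2.83-fold higher relative to them (log2 1.50 ± 0.18, adjusted p = 2e-10) and Ednrb lower (-1.58 ± 0.16, p = 2.6e-12), although both mark aerocytes. Pecam1 (1.02 ± 0.09) and Plvap (0.30 ± 0.08) turned from lower in the whole library to higher on this scale, though Plvap no longer passed when scaled to Pecam1 and Cldn5 instead (-0.027, adjusted p = 0.76), and Tek (-0.71 ± 0.09), Gpihbp1 (-0.73 ± 0.12), Aplnr (-0.58 ± 0.16), Cldn5 (-0.36 ± 0.09) and Kdr (-0.27 ± 0.07) stayed lower. Airway showed Car4 at 0.91 ± 0.18, Ednrb at -1.01 ± 0.16, Tek at -0.81 ± 0.09 and Gpihbp1 at -0.70 ± 0.12. Between the tissues of PBS mice, where 82% of all genes passed, Apln, Aplnr, Gpihbp1 and Cldn5 were lower in airway relative to the pan-endothelial genes, by 0.33 to 0.52 on the log2 scale, and Pecam1 was higher (0.58 ± 0.09).

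**Figure D2:**
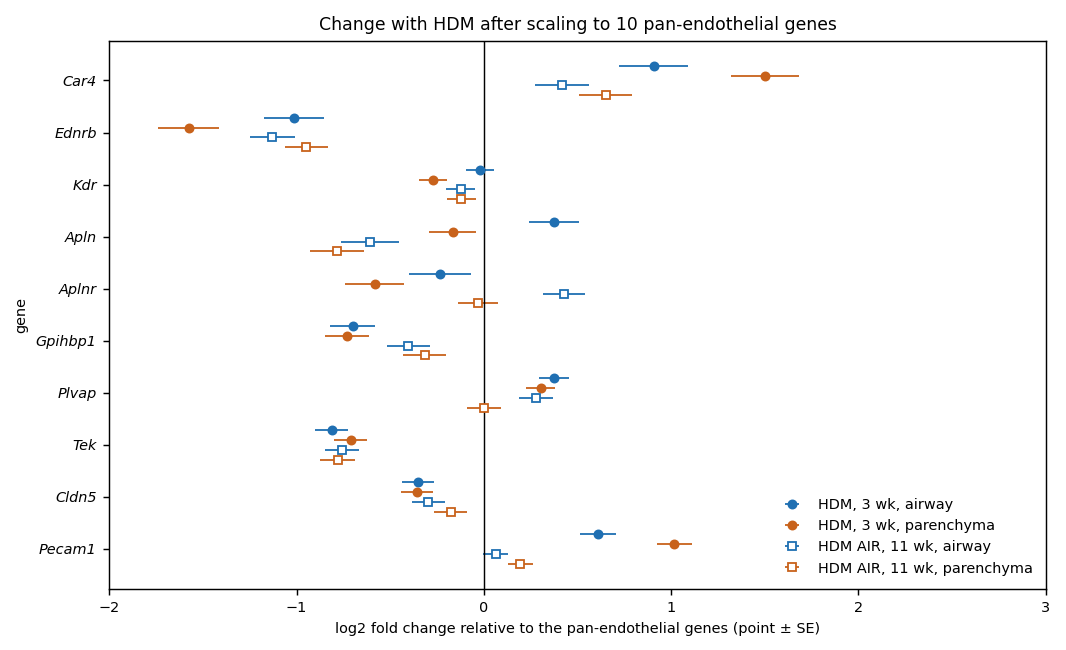
Log2 difference HDM less PBS for each gene after scaling to 10 pan-endothelial genes (x axis, bars are standard errors), in airway and parenchyma at 3 and 11 weeks. Car4 lies right of 0 and Ednrb and Tek left of 0 in all 4 comparisons.

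Car4 and Ednrb, both aerocyte genes, moved apart, which was also read as a ratio within each library. The ratio of Car4 to Ednrb CPM lay between 1.17 and 2.00 in PBS parenchyma at 3 weeks (median 1.45) and between 8.85 and 22.1 in HDM parenchyma (median 10.8). The groups did not overlap. In airway it was 0.672 to 1.55 with PBS (median 1.204) and 0.535 to 13.2 with HDM (median 5.10), where the lowest HDM library was X63. At 11 weeks the parenchyma medians were 1.67 in PBS AIR (1.39 to 2.28), 4.69 in HDM AIR (3.29 to 13.0), 3.71 in PBS CS (2.35 to 7.78) and 3.63 in HDM CS (1.96 to 5.76). HDM AIR and PBS CS were each above every PBS AIR library, whereas HDM CS overlapped PBS AIR.

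**Figure D3:**
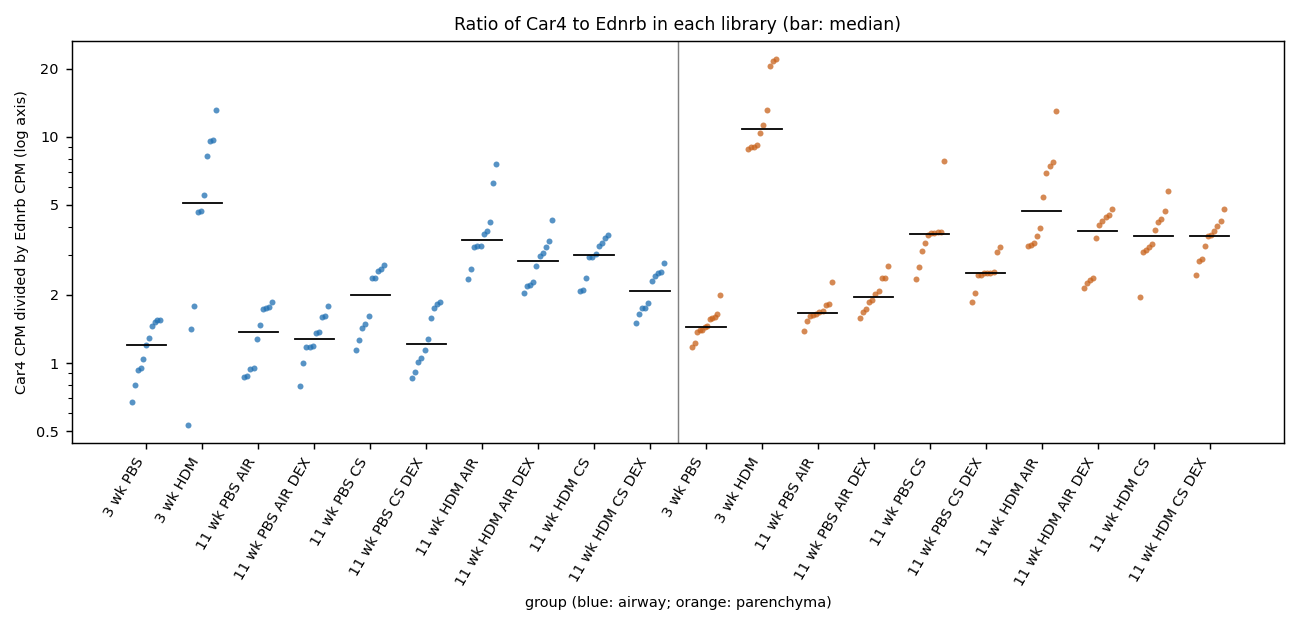
Ratio of Car4 to Ednrb level in each library (log axis) for the 20 groups, with the median as a bar. At 3 weeks the parenchyma ratio was 1.17 to 2.00 with PBS and 8.85 to 22.1 with HDM, and at 11 weeks the air-exposed parenchyma groups had medians of 1.67 (PBS) and 4.69 (HDM).

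At 11 weeks the question was whether continued HDM still held these genes low. In parenchyma all 10 were lower in HDM AIR than in PBS AIR (26.9% of all genes were), 9 of them with a log2 difference of at least 1 in size (6.12% of all genes). Ednrb lay between 80.5 and 143.4 CPM in PBS AIR (median 123.7) and between 9.19 and 49.1 CPM in HDM AIR (median 24.03), 4.64-fold lower (adjusted p = 2.3e-24). Apln, which encodes the apelin peptide, was 4.13-fold lower, from 42.7 to 74.8 CPM (median 60.97) to 5.44 to 38.6 CPM (median 14.5). Tek was 4.10-fold lower, from 504 to 780.5 CPM (median 638) to 63.4 to 264 CPM (median 136.8). All 10 but Car4 were without overlap, beside 11.1% of all genes, and the other folds ran from 2.08 for Pecam1 to 2.98 for Gpihbp1. Car4 lay between 149.6 and 224.5 CPM in PBS AIR and between 33.4 and 227 CPM in HDM AIR (log2 -0.61 ± 0.22, adjusted p = 0.011). Its call rested on the libraries that stood apart: without them it was -0.27 (p = 0.27), and edgeR's quasi-likelihood test gave -0.42 (p = 0.062). Of the lists, 7 of 8 further aerocyte, 6 of 6 general capillary, 7 of 9 arterial, 6 of 7 venous and 9 of 10 pan-endothelial genes fell, and Lpl (1.55 ± 0.17) and Selp (1.72 ± 0.28) rose.

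In 11-week airway 7 of the 10 genes were lower with HDM AIR (29.8% of all genes were): Ednrb (-1.71 ± 0.17), Tek (-1.34 ± 0.18), Apln (-1.21 ± 0.22), Gpihbp1 (-0.98 ± 0.18), Cldn5 (-0.88 ± 0.17), Kdr (-0.70 ± 0.14) and Pecam1 (-0.52 ± 0.11). Only Ednrb did not overlap (6.03% of all genes did not in this direction), at 38.5 to 85.8 CPM in PBS AIR (median 69.6) and 14.25 to 34.2 CPM in HDM AIR (median 19.4). Aplnr (-0.14 ± 0.19), Plvap (-0.30 ± 0.17) and Car4 (-0.16 ± 0.21) did not pass. Leaving out the libraries that stood apart gave 8 lower genes, Plvap (-0.40, adjusted p = 0.033) among them, and with sample quality weights all 10 were, Car4 at -0.50 (p = 0.015), Plvap at -0.55 (p = 0.0018) and Aplnr at -0.45 (p = 0.018). The HDM difference was smaller in size in airway than in parenchyma for 6 genes (12.7% of all genes passed in that direction): Aplnr by 1.13 ± 0.26, Plvap by 0.95 ± 0.25, Apln by 0.84 ± 0.30, Tek by 0.69 ± 0.26, Kdr by 0.67 ± 0.20 and Pecam1 by 0.54 ± 0.16. Without the libraries that stood apart only Aplnr and Plvap passed. The library X109, labelled airway with parenchyma-like markers, had the highest Car4 of its group, 170.4 CPM.

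Between the time points, the HDM difference of Aplnr in airway was -1.40 ± 0.25 at 3 weeks and -0.14 ± 0.19 at 11 weeks, which differed by 1.199 ± 0.29 in the fit of all groups (adjusted p = 0.00071). Gpihbp1 (0.83 ± 0.26) and Cldn5 (0.59 ± 0.23) also fell less at 11 weeks, and 14.5% of all genes passed in that direction. Cldn5 no longer passed without the libraries that stood apart (0.46, adjusted p = 0.12). In parenchyma Ednrb fell less at 11 weeks (0.67 ± 0.25). The HDM difference lay lower at 11 than at 3 weeks for Pecam1 (-0.78 ± 0.15, adjusted p = 6.3e-06) and Car4 (-0.81 ± 0.32, p = 0.031). Those 3 genes stand beside 42.4% of all genes in either direction. The level of Pecam1 itself was not lower, with medians of 336 (PBS) and 273 CPM (HDM) at 3 weeks. At 11 weeks its medians were 783 (PBS AIR) and 345 CPM (HDM AIR). Without the libraries that stood apart Car4 no longer passed (-0.45, adjusted p = 0.2) and Gpihbp1, at 0.68 (p = 0.02), did. The 3-week and 11-week mice also differed in time since the first dose and in the HDM schedule, which cannot be told apart.

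**Figure D4:**
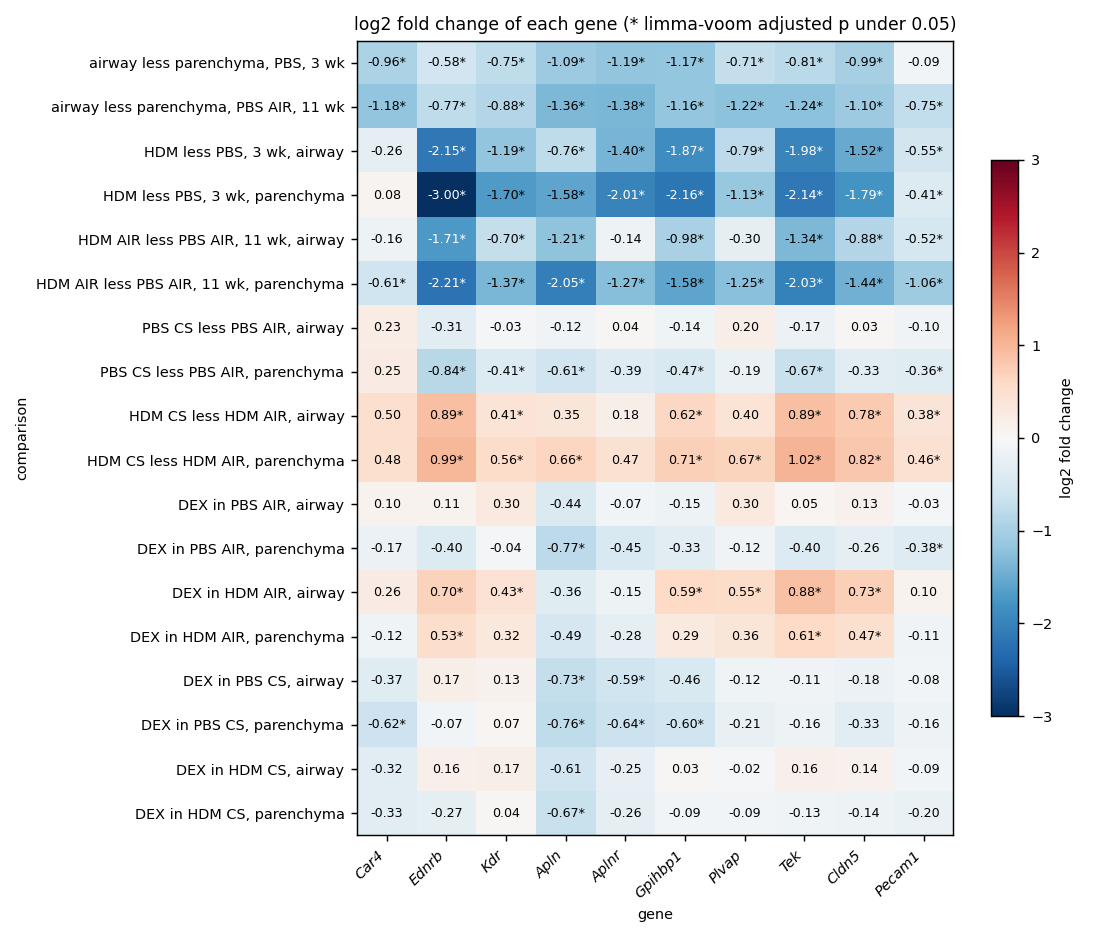
Heat map of log2 differences, with genes as columns and the comparisons of tissue, HDM, smoke (CS) and dexamethasone (DEX) as rows, blue below 0 and red above, and a star where the adjusted p was under 0.05. The darkest cell is Ednrb with HDM in 3-week parenchyma, at -3.00, and the rows of smoke added to HDM are red.

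Relative to the pan-endothelial genes, the 11-week HDM comparison gave Car4 as higher in both tissues (0.65 ± 0.14 in parenchyma and 0.42 ± 0.14 in airway). In parenchyma Car4 was lower in the whole library, a call that did not pass without the libraries that stood apart. On the endothelial scale those libraries were kept, among them X109, which had the highest Car4 of its airway group. Ednrb (-0.95 ± 0.12 and -1.13 ± 0.12), Apln (-0.79 ± 0.14 and -0.61 ± 0.15), Tek (-0.78 ± 0.09 and -0.76 ± 0.09) and Gpihbp1 (-0.32 ± 0.11 and -0.40 ± 0.12) were lower in parenchyma and airway. Plvap in parenchyma did not pass (0.00 ± 0.09, adjusted p = 0.99). On this scale 90.7% and 74.3% of all genes passed in parenchyma and airway.

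Smoke alone lowered 6 of the 10 genes in parenchyma, and none of the 10 passed in airway. In parenchyma (18.2% of all genes were lower) Ednrb went from 80.5 to 143.4 CPM in PBS AIR to 45.1 to 96.8 CPM in PBS CS (median 61.9), 1.79-fold lower (log2 -0.84 ± 0.16, adjusted p = 1e-05). Tek went from 504 to 780.5 CPM to 257 to 484 CPM (median 399), 1.59-fold lower (p = 0.0042) and the single gene of the 10 without overlap (3.28% of all genes). Apln (-0.61 ± 0.17), Gpihbp1 (-0.47 ± 0.18), Kdr (-0.41 ± 0.15) and Pecam1 (-0.36 ± 0.12) fell by less. Car4 had 198.6 to 351 CPM in PBS CS, with a log2 difference of 0.25 ± 0.22 (p = 0.41), and relative to the pan-endothelial genes it was higher by 0.70 ± 0.14 (p = 3.7e-05), where 57.2% of all genes passed. The highest Car4 value came from 1 library, X173, and the others reached 260.9 CPM. X173 was kept in every fit. Of the lists, 4 of 8 further aerocyte, 2 of 6 general capillary and 8 of 10 pan-endothelial genes fell. In airway, where 13.7% of all genes changed in either direction, log2 differences ran from -0.31 (Ednrb) to 0.23 (Car4). The 95% confidence interval reached from -0.63 to 0.00 for Ednrb and from -0.53 to 0.20 for Tek, and whether smoke acted differently in the 2 tissues was not tested. Scaled to the pan-endothelial genes Plvap alone passed there (0.28 ± 0.09, p = 0.04, beside 6.27% of all genes), and no longer did when scaled to Pecam1 and Cldn5 (0.23, p = 0.18).

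Mice given HDM and smoke had higher levels of most of these genes than mice given HDM and air. In parenchyma 8 of the 10 were higher in HDM CS than in HDM AIR (10% of all genes were). Tek went from 63.4 to 264 CPM (median 136.8) to 226 to 419 CPM (median 296), a log2 difference of 1.02 ± 0.18 (adjusted p = 3.7e-06). Ednrb went from 9.19 to 49.1 CPM (median 24.03) to 29.3 to 67.4 CPM (median 53.5), a log2 difference of 0.99 ± 0.17 (p = 2e-06). The groups overlapped in both. Cldn5 (0.82 ± 0.17), Gpihbp1 (0.71 ± 0.18), Plvap (0.67 ± 0.18), Apln (0.66 ± 0.21), Kdr (0.56 ± 0.14) and Pecam1 (0.46 ± 0.11) were higher, whereas Car4 (0.48 ± 0.22, p = 0.094) and Aplnr (0.47 ± 0.18, p = 0.05) did not pass. Without the libraries that stood apart, of which X70 and X90 belong to HDM AIR parenchyma, 6 genes passed, Apln and Plvap no longer. In airway 6 genes were higher (6.07% of all genes were), led by Ednrb and Tek (0.89 ± 0.18 and 0.89 ± 0.17) and Cldn5 (0.78 ± 0.17), with Gpihbp1, Kdr and Pecam1 at 0.62, 0.41 and 0.38. Without the libraries that stood apart 8 genes passed there, Car4 (0.64, adjusted p = 0.0097) and Plvap (0.46, p = 0.047) being added.

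The test of the interaction asks whether the difference made by smoke depended on HDM. In parenchyma it was above 0 for 9 of the 10 genes (17.3% of all genes), with a median of 1.06, beside -0.04 over all genes, and with Ednrb (1.83 ± 0.24, adjusted p = 9.4e-11) and Tek (1.69 ± 0.27, p = 8.2e-08) largest. For Ednrb smoke went with a lower level without HDM (-0.84) and a higher level with HDM (0.99). Car4 did not pass (0.23 ± 0.31, p = 0.6). The 9 genes passed also without the libraries that stood apart. The further general capillary genes (6 of 6) and pan-endothelial genes (10 of 10) moved the same way, as did Angpt1 (1.42 ± 0.19) and Vegfa (1.21 ± 0.22), while 6 of 10 leukocyte markers moved the other way (18.7% of all genes did). In airway 5 genes passed (7.72% of all genes): Ednrb (1.204 ± 0.24), Tek (1.06 ± 0.25), Gpihbp1 (0.75 ± 0.25), Cldn5 (0.75 ± 0.24) and Pecam1 (0.48 ± 0.16). The summed leukocyte markers lay between 1524 and 2567 CPM in HDM AIR parenchyma, between 1182 and 1661 CPM in HDM CS and between 483 and 685 CPM in PBS AIR, and their part in the interaction was not tested.

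HDM with smoke was also set against the PBS AIR controls. Against PBS AIR parenchyma, 9 of the 10 genes were lower in HDM CS (22% of all genes were), from Apln (2.62-fold) and Ednrb (2.34-fold) to Plvap (1.50-fold). Ednrb, Apln, Gpihbp1, Tek and Pecam1 did not overlap (6.82% of all genes), and Car4 had a log2 difference of -0.13 ± 0.22 (adjusted p = 0.67). In airway 3 genes were lower (23.8% of all genes were): Apln (-0.85 ± 0.20), Ednrb (-0.82 ± 0.16) and Tek (-0.45 ± 0.18). Gpihbp1 (-0.40, adjusted p = 0.039) and Kdr (-0.33, p = 0.042) passed as well without the libraries that stood apart.

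**Figure D5:**
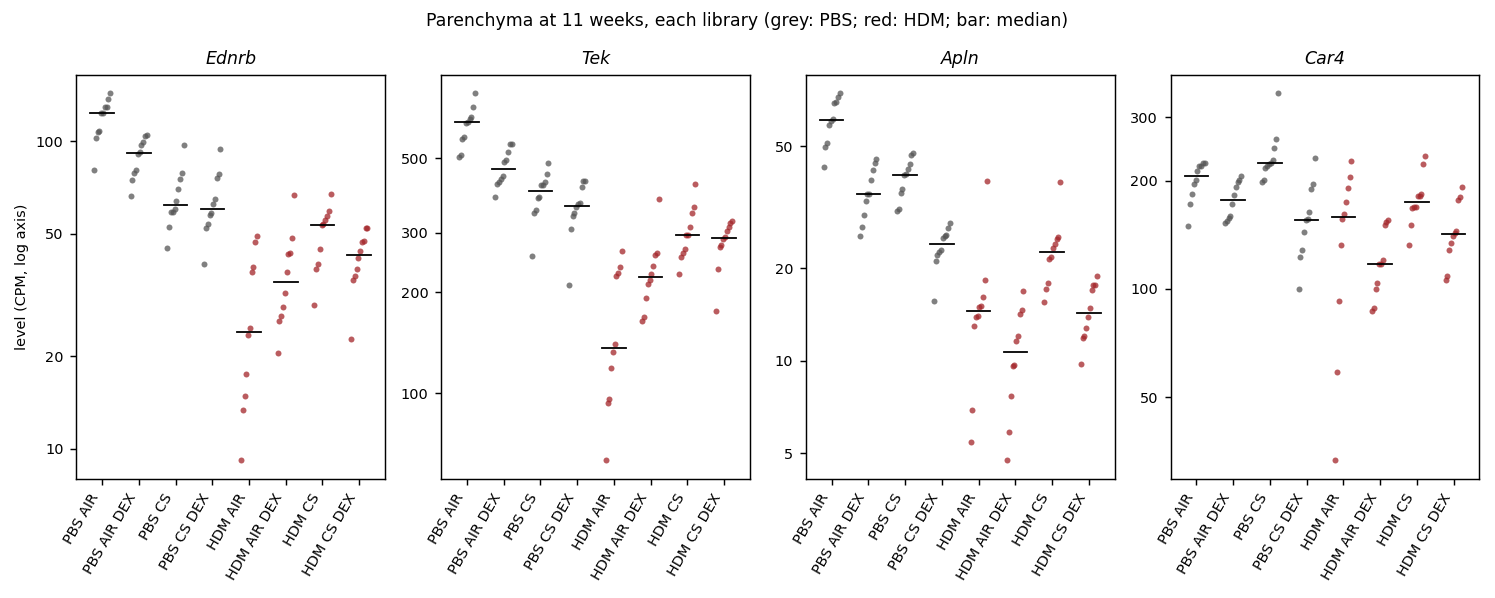
Levels of Ednrb, Tek, Apln and Car4 in parenchyma at 11 weeks (CPM, log axis), 1 point for each of the 10 libraries of each of the 8 groups sorted by value, with the median as a bar. The medians of Tek were 638 CPM in PBS AIR, 136.8 CPM in HDM AIR and 296 CPM in HDM CS, and Apln had a lower median in each DEX group than in its group without DEX.

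Dexamethasone was compared within each exposure. With HDM and air, 6 of the 10 genes rose in airway under DEX (12.5% of all genes did): Tek went from 63.3 to 163.98 CPM (median 98.7) to 139.5 to 284 CPM (median 183.5), a log2 difference of 0.88 ± 0.17 (adjusted p = 1.8e-05). Cldn5 rose by 0.73 ± 0.17, Ednrb by 0.70 ± 0.18, Gpihbp1 by 0.59 ± 0.18, Plvap by 0.55 ± 0.17 and Kdr by 0.43 ± 0.14. Of the lists, 5 of 6 further general capillary and 9 of 10 pan-endothelial genes rose too, with Bmp6 and Hilpda both at 1.11. Leukocyte markers, 6 of 10 lower beside 16% of all genes, had a sum of 1318 to 2115 CPM without and 1004 to 1570 CPM with DEX, and their part was not tested. In parenchyma 3 genes rose (12.2% of all genes did), Tek (0.61 ± 0.18), Ednrb (0.53 ± 0.17) and Cldn5 (0.47 ± 0.17). These calls rested on the libraries that stood apart: without them none of the 3 passed, and Apln fell (-0.76, adjusted p = 0.01). They depended on the method too: with all libraries edgeR gave 1 gene higher and 1 lower, and DESeq2 2 higher and 1 lower.

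In mice without HDM none of the 10 genes rose under DEX. In PBS AIR airway none of the 10 genes passed (14.9% of all genes did, in either direction), and in parenchyma Apln (-0.77 ± 0.17, adjusted p = 0.00029) and Pecam1 (-0.38 ± 0.12, p = 0.011) fell, beside 12% of all genes. Pecam1 went from 687 to 841 CPM to 537 to 652 CPM, without overlap (2.3% of all genes). Ednrb fell as well without the libraries that stood apart (-0.41, adjusted p = 0.04). With sample quality weights Ednrb (-0.44, adjusted p = 0.0034), Aplnr (-0.42, p = 0.011), Tek (-0.39, p = 0.027) and Gpihbp1 (-0.35, p = 0.035) fell too. The DEX difference was larger with HDM than without for Tek in airway (0.83 ± 0.25, p = 0.037, beside 1.11% of all genes) and for Tek (1.01 ± 0.27), Ednrb (0.93 ± 0.24) and Cldn5 (0.73 ± 0.25) in parenchyma, beside 6.02%. Without the libraries that stood apart Cldn5 no longer passed in parenchyma (0.50, adjusted p = 0.18), while Gpihbp1 (0.82, p = 0.025) and Cldn5 (0.71, p = 0.044) passed in airway, and the median over the 10 genes in parenchyma went from 0.42 to 0.27. With smoke alone, DEX lowered Apln (-0.73 ± 0.21) and Aplnr (-0.59 ± 0.19) in airway (6.6% of all genes fell), the peptide and its receptor. In PBS CS parenchyma it lowered Apln (-0.76 ± 0.18), Aplnr (-0.64 ± 0.18), Car4 (-0.62 ± 0.22) and Gpihbp1 (-0.60 ± 0.18), beside 9.49% of all genes. The PBS CS library X173, which stood far above its group in Car4 and Gpihbp1, was kept in these fits. Under HDM with smoke no gene of the 10 passed in airway with limma-voom (9.3% of all genes did, in either direction), where edgeR and DESeq2 each gave 1, Apln, and in parenchyma Apln fell (-0.67 ± 0.21, p = 0.026), beside 5.4% of all genes.

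Apln thus had a log2 DEX difference below 0 in all 8 comparisons, from -0.36 to -0.77, of which 4 passed. In PBS CS parenchyma it went from 30.7 to 47.5 CPM (median 40.5) to 15.7 to 28.04 CPM (median 23.99), without overlap (1.08% of all genes). No other gene of the 10 passed in more than 2 of the 8.

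Likeness across the study was described by Pearson's r of log2 CPM over the 20 group means, which share libraries, exposures and tissue and are given without a test. The genes most like Tek among 18528 were Ptprb, Sema3g and Efnb2 (r = 0.99 each), and those most like Kdr were Utrn, Phactr2 and Sptbn1 (0.99 each). Ednrb went most closely with Eml1, Reck and Tspan12 (0.98 to 0.99), Plvap with Cdh5, Daam1 and Arap3 (0.98 to 0.99), Gpihbp1 with Egfl7, Fam219b and Fez2 (0.98) and Cldn5 with Foxf1, Egfl7 and Tspan7 (0.98). Aplnr (Adgrl4, Rasip1 and Oaz2), Pecam1 (Ppm1f, Erg and Zeb1) and Apln (Nhlrc2, 1700020I14Rik and Acer2) had r between 0.95 and 0.97 with their nearest genes. Car4 had the lowest, 0.94 with Rin2 and 0.93 with Tnfsf10 and Slc6a4. Within groups, deviations of the 10 genes from their group means went together over 101 airway libraries, with a median r of 0.77 over the 45 pairs of genes, and less so over the parenchyma libraries (0.52). The lowest airway pair was Car4 and Ednrb (0.31). In parenchyma that pair had an r of 0.48, and the lowest pair was Aplnr and Gpihbp1 (0.15).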

How the data were processed

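Bulk RNA-seq of airway and parenchyma libraries was analysed. The deposited values are estimated counts per gene, which the authors made from their sequencing reads before deposit, and 20.3% of those above 0 had a fractional part. The submitters' processing notes name bcl2fastq 2.20.0.422, STAR 2.5.1b, RSEM 1.2.31, kallisto 0.44.0 and mm10, without saying which tool made the table. These estimated counts were rounded to whole numbers here. Identifiers were matched to GENCODE M21 by stable identifier (98.0% matched, 53.3% in the same version).

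Genes were kept where at least 9 libraries reached the CPM that 10 counts make in the median library. Counts were scaled by TMM and tested by limma-voom (R 4.3.3, limma 3.58.1, edgeR 4.0.16) over the 43 libraries of 3 weeks (17381 genes), the 160 of 11 weeks (18250 genes) or all 203 (18528 genes, for differences between time points). P-values were Benjamini-Hochberg adjusted over all genes tested. A second fit scaled each library to the geometric mean of Cdh5, Erg, Esam, Egfl7, Robo4, Clec14a, Mmrn2, Sox18, S1pr1 and Tie1.

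The 10 genes and all gene lists were chosen with earlier results of these data known. Named genes are the 10, up to 3 genes per list with the largest change past the test (genes that went against their list and ligands of the receptors were added after their values were seen), and the 3 most alike per gene. Replicates are separate libraries, and nothing in the labels says which tissues come from 1 mouse. Within groups every pair of libraries differed by more than counting noise (chi-square per degree of freedom at least 8.49 over 931 pairs). Alternatives were edgeR, DESeq2 1.42.0, DESeq2 size factors, other filters, 1 fit of all groups, quality weights, another endothelial scaling and, chosen after seeing the data, leaving out 6 libraries. The code was tested on simulated data.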

Additional observations from a re-analysis of the deposited data

Results flagged for a closer look

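Single libraries were looked at in the 180 combinations of gene and group with 10 libraries or fewer, and 16 had a highest or lowest value far from its group by Dixon's criterion, where chance alone gives about 1 in 20. In HDM CS DEX parenchyma 1 library was lowest in Ednrb (22.7 CPM), Kdr (123.8), Plvap (130.6) and Tek (175.6). In PBS CS parenchyma 1 library was highest in Car4 (350.8) and Gpihbp1 (219.0) and lowest in Pecam1 (455.6), and another was highest in Aplnr (127.3). In HDM CS parenchyma 1 library was highest in Aplnr (118.8) and Plvap (357.0). Further single values were Aplnr in HDM AIR parenchyma (highest, 79.96), Apln (lowest, 15.7), Tek (lowest, 209.5) and Cldn5 (highest, 331.2) in PBS CS DEX parenchyma, Gpihbp1 in HDM CS DEX airway (lowest, 33.3) and Pecam1 in PBS AIR airway (lowest, 232.1).

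Effects were compared between tissues, times and exposures by interaction terms in limma-voom, 80 in all, and 33 had an adjusted p under 0.05. The shares of all genes that passed, given with each comparison above, differed widely. They ran from 1.11% (DEX term, airway, higher) to 42.4% (HDM at 11 less 3 weeks, parenchyma, either direction). The HDM difference in airway less that in parenchyma was 0.86 (Ednrb), 0.51 (Kdr) and 0.83 (Apln) at 3 weeks, and 0.67 (Kdr), 0.84 (Apln), 1.13 (Aplnr), 0.95 (Plvap), 0.69 (Tek) and 0.54 (Pecam1) at 11 weeks. The HDM difference at 11 less 3 weeks was 1.199 (Aplnr), 0.83 (Gpihbp1) and 0.59 (Cldn5) in airway, and -0.81 (Car4), 0.67 (Ednrb) and -0.78 (Pecam1) in parenchyma. The HDM by CS term was 1.204 (Ednrb), 0.75 (Gpihbp1), 1.06 (Tek), 0.75 (Cldn5) and 0.48 (Pecam1) in airway. In parenchyma it was 1.83 (Ednrb), 0.97 (Kdr), 1.26 (Apln), 0.86 (Aplnr), 1.18 (Gpihbp1), 0.86 (Plvap), 1.69 (Tek), 1.15 (Cldn5) and 0.82 (Pecam1). The DEX difference with HDM less that without was 0.83 (Tek) in airway, and 0.93 (Ednrb), 1.01 (Tek) and 0.73 (Cldn5) in parenchyma. Without the libraries that stood apart, the 11-week tissue terms of Kdr, Apln, Tek and Pecam1 no longer passed. Nor did the time terms of Cldn5 in airway and Car4 in parenchyma, or the DEX term of Cldn5 in parenchyma. The DEX terms of Gpihbp1 and Cldn5 in airway and the time term of Gpihbp1 in parenchyma newly passed.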

How the results depend on the processing

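Of the recomputed single-gene results 2186 kept direction and side of the threshold, 68 newly passed, 47 no longer passed and 45 changed sign, none of the latter past the threshold. Of the recomputed counts of genes 214 stayed within 1.5 times. The others were as follows, and the cause was not tested. The 3-week HDM difference between tissues gave 1 gene in the fit of all groups, and the 11-week one 3 with quality weights and 2 without the libraries that stand apart. HDM CS less PBS AIR in airway gave 5 genes with DESeq2, 6 with weights and 5 without those libraries. DEX in PBS AIR gave 1 gene in airway with weights, and in parenchyma 4 with DESeq2, 4 with the CPM filter of 10 and 6 with weights. DEX in HDM AIR parenchyma gave 1 gene without those libraries, DEX in HDM CS airway 1 with edgeR and 1 with DESeq2, and DEX in HDM CS parenchyma 0 without a filter. The DEX difference with HDM less without, in airway, gave 2 genes with edgeR, 2 with DESeq2, 0 without a filter, 4 with weights and 3 without those libraries. The HDM difference at 11 less 3 weeks in parenchyma gave 5 with weights. Scaled to Pecam1 and Cldn5 in place of the pan-endothelial genes, the tissue comparison gave 9 genes and smoke in airway 0.

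Signs changed for these values near 0. For smoke in airway, Aplnr was -0.0251 with weights and Cldn5 -0.0135 (edgeR), -0.0138 (DESeq2) and -0.0171 (weights). For HDM CS less PBS AIR in airway, Aplnr was -0.0706 (edgeR), -0.101 (DESeq2), -0.235 (weights) and -0.0064 (without the libraries that stand apart), and Plvap -0.0939 (weights). For DEX in PBS AIR airway, Car4 was -0.0027 (DESeq2) and -0.143 (weights), Tek -0.0391 (edgeR), -0.0525 (DESeq2) and -0.203 (weights), and Cldn5 -0.0635 (weights). For DEX in HDM AIR airway, Aplnr was 0.0228 (weights). For DEX in HDM CS airway, Gpihbp1 was -0.0195 (edgeR) and -0.0035 (DESeq2), and Plvap 0.115 (weights) and 0.001 (without those libraries). For the DEX difference with HDM less without, Aplnr in airway was 0.0411 (edgeR), 0.0534 (DESeq2) and 0.399 (weights), and Car4 in parenchyma -0.119 (edgeR), -0.114 (DESeq2), -0.0258 (weights) and -0.275 (without those libraries). With weights Kdr was -0.0059 for DEX in PBS CS parenchyma and Plvap 0.003 for DEX in HDM CS parenchyma. Without those libraries Car4 was -0.14 for HDM by CS in parenchyma and -0.0741 for the 11-week HDM difference between tissues. For the HDM difference at 11 less 3 weeks, Car4 in airway was -0.159 (edgeR), -0.174 (DESeq2), -0.337 (weights) and -0.202 (without those libraries), and Tek in parenchyma 0.0888 (edgeR), 0.0924 (DESeq2), 0.0219 (CPM filter), 0.0181 (weights) and 0.186 (without those libraries). Scaled to Pecam1 and Cldn5, Ednrb was -0.0426 between tissues, Plvap -0.027 and -0.0059 for HDM in parenchyma at 3 and 11 weeks, and Kdr -0.0638 and Aplnr -0.0476 for smoke in parenchyma.

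No paired analysis was possible because the labels do not say which airway and parenchyma libraries come from the same mouse. Totals of 13003087 to 40240680 counts limit Apln most, with as few as 73 counts in a library.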
